A study of Homo sapiens with 6 samples.

Results

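The ETS family genes described here were 10 genes that encode ternary complex factors (ELK1, ELK3 and ELK4), ELF factors and the related GABPA (ELF1, ELF2, ELF4 and GABPA), and repressors of the family (ETV3, ETV6 and ERF). They were chosen by gene symbol, and all 10 were found among the 35268 named genes of the table. Their mRNA was measured in Rh30, an established cell line from a fusion-positive rhabdomyosarcoma, a muscle-lineage tumour whose cells carry the PAX3-FOXO1 fusion. The cells received 1 µM of the drug YK, as the deposited table abbreviates it, dissolved in DMSO, or DMSO alone, for 24 h, with 3 libraries of polyA RNA in each group. YK, whose full name stands on the plots, is a small molecule made against fusion proteins of the ETS family, and the comparison asked how gene expression responded to it relative to the vehicle. Both groups were the same line, and the labels name no transgene or knockdown, so that a single line stands for the tumour. The study states triplicate samples but not separate cultures, so that p-values measure the spread between these libraries, which may be technical.

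ETS proteins share a DNA-binding domain that recognises a GGAA core, and the flanking bases and partner proteins set where each one binds. Ternary complex factors bind DNA beside serum response factor (SRF), whose own site is called a CArG box, and turn on immediate early genes when MAP kinases phosphorylate them. ELF factors and GABPA act as activators at many promoters, whereas ETV3, ETV6 and ERF recruit corepressors to the same kind of site and thereby oppose the activators.

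The libraries held between 16724650 and 24677433 reads on named genes. DMSO replicate 1, the shallowest, stood apart from the rest, with a mean correlation of 0.989 with the other libraries against 0.992 or more for each of the others (log2 values), and with 6.05% of its reads on mitochondrial genes against 4.74% to 5.03%. It was the highest of the 6 libraries for 5 of the 10 ETS genes and the lowest for 2, so that many values are also given without it. The labelled cell type held against its markers. All 8 rhabdomyosarcoma and myogenic genes examined passed the filter, with summed normalized counts of 86986 to 101817 in DMSO and 93115 to 98181 with YK, none of them changed by limma (3 had an unadjusted p under 0.05, edgeR and DESeq2 also called 0, and 3 were called lower without DMSO replicate 1). The 13 markers of blood, endothelial, epithelial, liver and melanocyte cells summed to 179.5 to 193 in DMSO and 178 to 238 with YK. Of these 13, 6 also passed the filter (PECAM1, CDH5, EPCAM, KRT18, PMEL and MLANA), none with a mean of 100 or more. The others did not pass, and PTPRC was at 0 in every DMSO library.

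Of the 10 ETS genes, 1 changed. ELK3 was lower with YK at an adjusted p just under 0.05, and the other 9 did not pass (limma on log2 normalized counts, Benjamini-Hochberg adjustment over 13930 genes). Over all genes tested, 3.41% passed, 1.26% higher and 2.15% lower. The log2 fold changes of the members ran from -0.29 to 0.21, 5 above and 5 below 0, with a median of -0.04 against -0.01 over all genes. At an unadjusted p under 0.05 there were 5, of which 3 were lower and 2 were higher, where 18.7% of all genes tested passed (11.0% lower and 7.69% higher). The 3 libraries of one group lay wholly apart from those of the other for 4 of the 10, with 3 lower (ELK3, ELF4 and GABPA) and 1 higher (ETV3), where 26.0% of all genes tested did so. In bulk RNA, a fall in a gene's level can come from less mRNA per cell or from fewer of the cells that hold it, and these cannot be told apart.

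**Figure D1:**
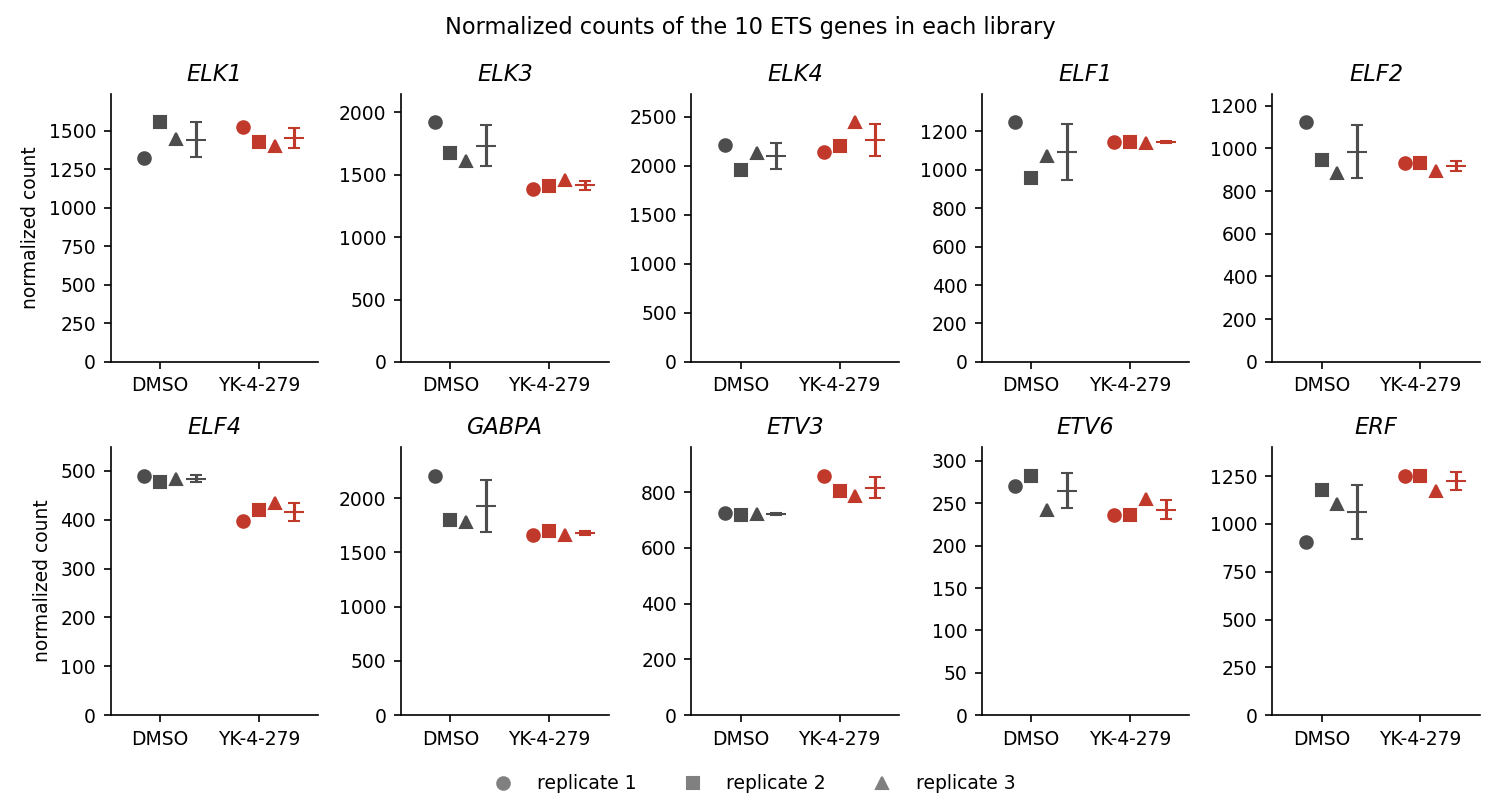
Normalized counts (linear axes from 0) of each of the 10 ETS genes in the 3 DMSO and 3 YK libraries, with replicates as separate symbols and the mean with its SD (n = 3) beside them. ELK3, ELF4 and GABPA show 3 YK points below every DMSO point, ETV3 shows them above, and the other 6 genes overlap.

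Levels were compared between genes as normalized counts per kb of merged exons, because longer transcripts collect more reads. In DMSO the order from the top was ELK1 (424 ± 33.8 per kb, SD, n = 3), ELK3 (374 ± 35.4), GABPA (336 ± 42.3), ERF (325 ± 43.4), ELF1 (246 ± 32.9), ELK4 (172 ± 10.7), ELF2 (115 ± 14.5), ETV3 (108 ± 0.658), ELF4 (92.4 ± 1.23) and ETV6 (36.6 ± 2.87). Neighbours down to ELF1 overlapped in their DMSO ranges, as did ELF2 and ETV3, whereas ELF1 and ELK4, ELK4 and ELF2, ETV3 and ELF4, and ELF4 and ETV6 did not. Measured by the longest transcript of each gene instead, ERF stood above GABPA and ELF2 above ELK4, so that these places depended on which exons were counted. With YK, ERF stood second at 375 ± 13.8 per kb, above ELK3 at 305 ± 7.93. The sum over the 10 genes was 2228 ± 63.8 per kb in DMSO (2193 without replicate 1) and 2183 ± 13.9 with YK.

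ETS1, the family member that the study worked on, had a higher mean level than any of the 10, at 470 ± 21.0 per kb in DMSO and 471 ± 4.10 with YK, although its DMSO range (446 to 486) overlapped that of ELK1 (390.4 to 458). Its log2 fold change was 0.01 (SE 0.06, 95% confidence interval -0.12 to 0.13, limma adjusted p = 0.974). Among the 18 other ETS genes listed, 8 passed the filter and 10 did not, of which 4 were at 0 in every library (ERG, ETV3L, EHF and SPIC). A count of 0 allows up to 3 reads in a library, which came to at most 3.78 normalized counts. None of the 8 was called by limma, edgeR or DESeq2, and 2 had an unadjusted p under 0.05, both lower (ETS2 and ETV5, named after their values were seen, at log2 fold changes of -0.16 and -0.23). Without DMSO replicate 1, where 13.1% of all genes tested passed, ETV4 (-0.29, limma adjusted p = 0.00066) and ETV5 (-0.17, limma adjusted p = 0.0302) were called lower. After the dependence on GC content and length was taken out, both were also called, at -0.22 and -0.21.

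**Figure D2:**
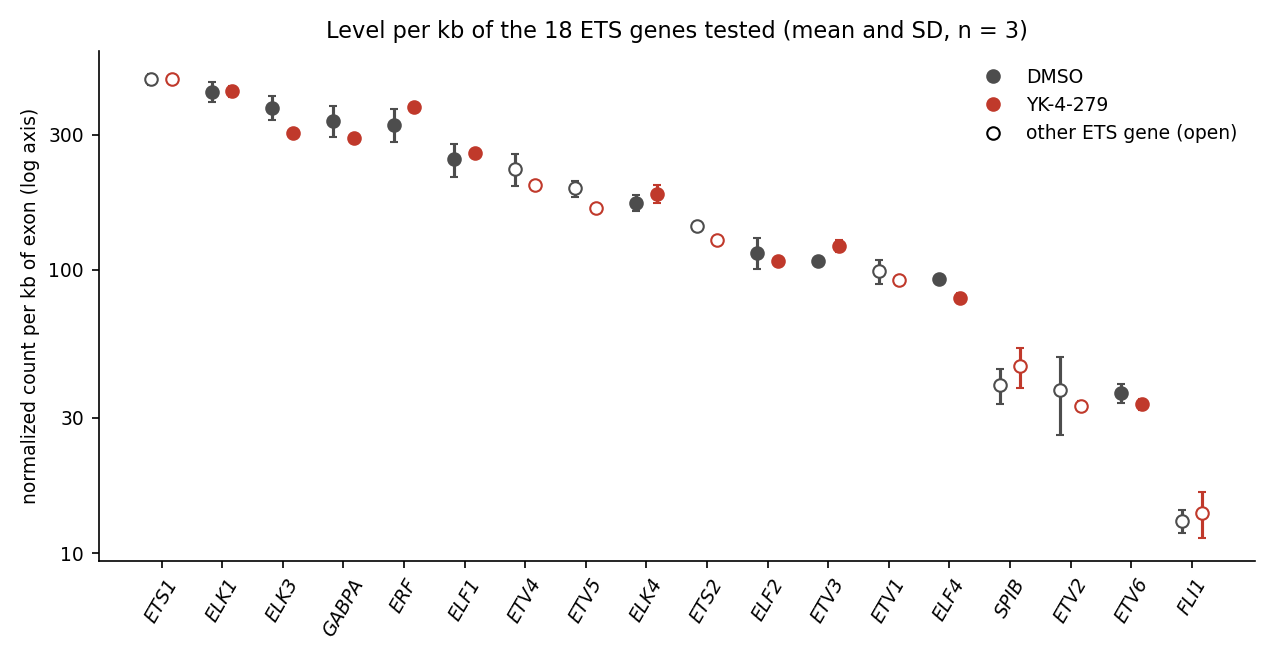
Mean normalized count per kb of exon (log axis, bars are SD, n = 3) for the 18 ETS genes that passed the filter, in DMSO (grey) and with YK (red), ordered by the DMSO level, with open symbols for genes outside the 10. ETS1, ELK1 and ELK3 lie at the top in DMSO, and ETV6, at 36.6 per kb, is the lowest of the 10.

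Among the ternary complex factors, ELK3, also called Net, represses through a domain of its own until MAP kinases phosphorylate it. The gene spans 96194375 to 96269824 of chromosome 12 (hg38, plus strand). DMSO replicates 1 to 3 had 1922, 1672 and 1611 normalized counts of ELK3, and the YK replicates had 1383, 1409 and 1456. Every YK library was below every DMSO library, and the mean was 1735 ± 164 in DMSO and 1416 ± 36.8 with YK (SD, n = 3). The log2 fold change was -0.29 (SE 0.07, 95% confidence interval -0.45 to -0.13, limma adjusted p = 0.0487), a level 0.818 times that in DMSO. It was larger in size than the change of 84.5% of the genes tested. Without DMSO replicate 1 it was -0.21 (limma adjusted p = 0.0018). Over 17 other analyses the sign held and 8 passed, with adjusted p from 0.0018 to 0.259 (limma, except 1 each by edgeR and DESeq2). The call was lost by TMM or quantile scaling, without the trend, with a replicate block, by edgeR (adjusted p = 0.0545), and without DMSO replicate 3 or any 1 YK library.

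ELK1 encodes an activator of the ternary complex, and lies on the X chromosome from 47635521 to 47650604. It had 1326, 1556 and 1444 normalized counts in DMSO and 1524, 1428 and 1401 with YK. The groups overlapped, with a log2 fold change of 0.01 (SE 0.07, 95% confidence interval -0.15 to 0.17, limma adjusted p = 0.960). Without DMSO replicate 1 it was -0.05 (limma adjusted p = 0.617). ELK4, also called SAP-1, is an activator close to ELK1 and lies on chromosome 1 from 205597556 to 205632011. Its counts were 2212, 1957 and 2128 in DMSO and 2139, 2203 and 2445 with YK, which also overlapped. The log2 fold change was 0.11 (SE 0.07, 95% confidence interval -0.04 to 0.26, limma adjusted p = 0.438). Without DMSO replicate 1 it was 0.15 and passed (limma adjusted p = 0.0424). Of its exons, 422 bases lie opposite MFSD4A, which had at most 11.1 normalized counts.

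Within the trio, the share of ELK3 in the summed level per kb was lower with YK in every library. ELK3 made up 42.0%, 36.8% and 36.7% of the sum in DMSO and 32.3%, 33.6% and 33.8% with YK, with no overlap. ELK4 made up 18.4%, 16.4% and 18.4% in DMSO and 19.0%, 20.0% and 21.7% with YK, whereas ELK1 overlapped between groups (39.6% to 46.8% in DMSO, 44.5% to 48.7% with YK). The read ratio of ELK3 to ELK4, which does not depend on how the libraries were scaled, was 0.869, 0.854 and 0.757 in DMSO and 0.647, 0.640 and 0.595 with YK. That was a log2 difference of -0.40, and -0.36 without DMSO replicate 1. The ratio of ELK1 to ELK3 was 0.690, 0.931 and 0.896 in DMSO and 1.10, 1.01 and 0.962 with YK, a log2 difference of 0.30, and 0.17 without DMSO replicate 1. With 3 libraries against 3, an exact two-sided permutation test cannot go below p = 0.10, which both ratios reached, and adjusted over the 12 ratios within the subgroups of members this became 0.15 (exact permutation, Benjamini-Hochberg). The ratio of ELK1 to ELK4 overlapped between groups, with a log2 difference of -0.10 (exact permutation p = 0.60). Of the 12 ratios, which share members, 6 were higher with YK in every library, 2 were lower and 4 overlapped. Higher or lower here depends only on which gene was divided by which. How often other gene pairs separate in this way was not taken, and no ratio had an adjusted p under 0.15 (exact permutation). The summed level of the trio was 970 ± 20.7 per kb in DMSO and 917 ± 11.6 with YK.

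**Figure D3:**
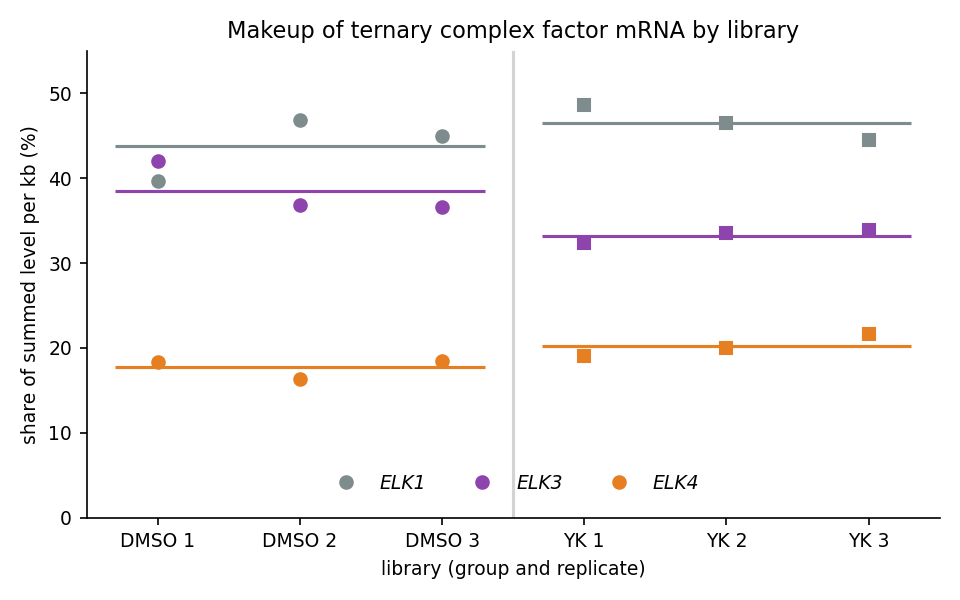
Share (%) of each ternary complex factor in the summed level per kb of ELK1, ELK3 and ELK4, by library, with lines at the group means. ELK3 lies between 36.7% and 42.0% in DMSO and between 32.3% and 33.8% with YK, ELK4 between 16.4% and 18.4% and then between 19.0% and 21.7%, and ELK1 overlaps between the groups.

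The bases just before the start sites of ELK3 and ELK4 are shown because their read ratio is given above, and because ETS proteins may bind at the GGAA core. Both runs cover the 120 bases before a RefSeq start (GRCh38.p14), at chr12:96194255-96194374 on the plus strand and chr1:205632012-205632131 on the minus strand. Capitals mark GGAA and the longer CCGGAA on either strand.
ELK3: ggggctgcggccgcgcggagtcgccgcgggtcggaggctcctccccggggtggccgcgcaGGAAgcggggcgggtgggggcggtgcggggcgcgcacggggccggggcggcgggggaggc
ELK4: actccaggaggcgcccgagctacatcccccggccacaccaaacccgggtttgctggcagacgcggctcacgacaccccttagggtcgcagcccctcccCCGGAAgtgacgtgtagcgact
The ELK3 run holds a single GGAA, 60 to 57 bases before the start. The ELK4 run holds CCGGAA, 22 to 17 bases before the start. Over the 18 RefSeq windows of the 10 members (250 bases before to 50 after a start, both strands), 16 held GGAA and 2 held CCGGAA (1 each of ELK4 and GABPA), or 88.9% and 11.1%. Of all 34943 windows, 95.4% held GGAA and 17.2% held CCGGAA, which contains it. No member's window held a CArG box, against 1.3% of all windows. These are matches of letters and not measured binding.

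The 3 genes whose pattern over the 6 libraries was most like that of ELK3 were TRAPPC9, NRP1 and KIAA1143. Likeness was the root mean square difference of centred log2 values, over 10698 genes with a mean of at least 100, and it came to 0.014, 0.018 and 0.021. NRP1, a receptor for semaphorins and vascular endothelial growth factor, had 595, 521 and 496 normalized counts in DMSO and 421, 438 and 461 with YK. Its log2 fold change was -0.28 (limma adjusted p = 0.104). TRAPPC9, a subunit of a vesicle tethering complex, had -0.32 (limma adjusted p = 0.122) and KIAA1143 had -0.31 (limma adjusted p = 0.0479). All 3 were highest in DMSO replicate 1, as ELK3 was.

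None of the ELF and GABPA genes passed the test (limma, edgeR and DESeq2 each called 0 of 4, and 2, ELF4 and GABPA, had an unadjusted p under 0.05, both lower). ELF4, an activator known from lymphoid and immune cells, lies on the X chromosome from 130063955 to 130110716. It had 490.5, 478 and 484 normalized counts in DMSO and 397, 419 and 433 with YK. The groups did not overlap, and the DMSO libraries lay close together (484 ± 6.42, SD, n = 3). The log2 fold change was -0.22 (SE 0.08, 95% confidence interval -0.39 to -0.04, limma adjusted p = 0.168).

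GABPA encodes the DNA-binding subunit of GABP, also called nuclear respiratory factor 2, which serves promoters of many mitochondrial and ribosomal genes together with GABPB subunits. It spans 25734570 to 25772460 of chromosome 21. Normalized counts were 2208, 1794 and 1781 in DMSO and 1664, 1699.5 and 1664 with YK. The groups did not overlap, but DMSO replicate 1 stood well above its own group. The log2 fold change was -0.19 (SE 0.08, 95% confidence interval -0.37 to -0.02, limma adjusted p = 0.214), and -0.09 without that library. Of its exons, 692 bases lie opposite ATP5PF, and whether reads were counted by strand is not given in the sources used here. ATP5PF had 888, 759 and 786 normalized counts in DMSO and 697, 863 and 837 with YK, which overlapped.

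A promoter of GABPA is shown because it holds a full CCGGAA, the site that GABP itself prefers. The run is the 120 bases before a RefSeq start, chr21:25734852-25734971 on the plus strand of GRCh38.p14, with that site in capitals, read on the opposite strand as printed. This run and its start lie inside the gene span given above, downstream of its first base at 25734570.
GABPA: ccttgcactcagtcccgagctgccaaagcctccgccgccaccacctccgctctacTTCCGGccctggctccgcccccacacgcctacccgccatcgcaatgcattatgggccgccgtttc
The site lies 65 to 60 bases before the start. It was the only GGAA core in these 120 bases.

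ELF1 and ELF2 encode activators with broad expression, and neither moved beyond the spread of the DMSO libraries. ELF1 (chromosome 13, 40931924 to 41061440) had 1247, 957 and 1071 normalized counts in DMSO and 1146.5, 1145 and 1139 with YK. All 3 YK libraries fell inside the DMSO range, and the log2 fold change was 0.08 (SE 0.09, 95% confidence interval -0.11 to 0.26, limma adjusted p = 0.681). Without DMSO replicate 1 it was 0.18 and passed (limma adjusted p = 0.0292). ELF2 (chromosome 4, 139028112 to 139177218) had 1122, 945 and 883 in DMSO and 929.7, 930.2 and 892 with YK, again inside the DMSO range. Its log2 fold change was -0.09 (SE 0.09, 95% confidence interval -0.28 to 0.09, limma adjusted p = 0.598), and 0.01 without DMSO replicate 1. The read ratio of ELF1 to GABPA was 0.565, 0.534 and 0.602 in DMSO and 0.689, 0.674 and 0.684 with YK, a log2 difference of 0.27 with and without DMSO replicate 1. Its exact two-sided permutation p was 0.10, the smallest possible, and 0.15 adjusted over the 12 ratios.

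The repressors did not pass the test either (limma, edgeR and DESeq2 each called 0 of 3, and 2, ETV3 and ERF, had an unadjusted p under 0.05, both higher). ETV3, a repressor tied to the arrest of growth in macrophages, lies on chromosome 1 from 157121191 to 157138474. It had 726, 717 and 721 normalized counts in DMSO and 859, 803 and 785 with YK. The groups did not overlap, with a log2 fold change of 0.18 (SE 0.07, 95% confidence interval 0.02 to 0.33, limma adjusted p = 0.208). Without DMSO replicate 1 the value was also 0.18 and passed (limma adjusted p = 0.0474). ERF, a repressor that ERK phosphorylates and sends out of the nucleus, lies on chromosome 19 from 42247569 to 42255128. Its counts were 904, 1178 and 1104 in DMSO and 1253, 1249 and 1173 with YK. The groups overlapped by 1 pair of libraries, and DMSO replicate 1 was the lowest. The log2 fold change was 0.21 (SE 0.09, 95% confidence interval 0.02 to 0.41, limma adjusted p = 0.225), and 0.10 without that library.

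ETV6, also called TEL, is a repressor known from leukaemia fusions and lies on chromosome 12 from 11649674 to 11895377. It was the least abundant member, with 269.8, 283 and 242 normalized counts in DMSO and 236, 236 and 255 with YK. The groups overlapped, with a log2 fold change of -0.13 (SE 0.10, 95% confidence interval -0.35 to 0.09, limma adjusted p = 0.539). The read ratio of ETV3 to ETV6 was 2.69, 2.54 and 2.98 in DMSO and 3.65, 3.41 and 3.08 with YK. That was a log2 difference of 0.30, and 0.29 without DMSO replicate 1 (exact permutation p = 0.10, and 0.15 adjusted over the 12 ratios). The summed level of the 3 repressors was 469 ± 43.0 per kb in DMSO and 530 ± 16.9 with YK, and that of the ELF and GABPA genes was 789 ± 88.0 and 736 ± 5.73. Leaving out DMSO replicate 1, the DMSO means were 493 for the repressors and 738 for the ELF and GABPA genes. Of the genes named after a member, ELK1P1 and ETV3L were at 0 in every library and ERFL had a mean of 2.77 normalized counts.

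**Figure D4:**
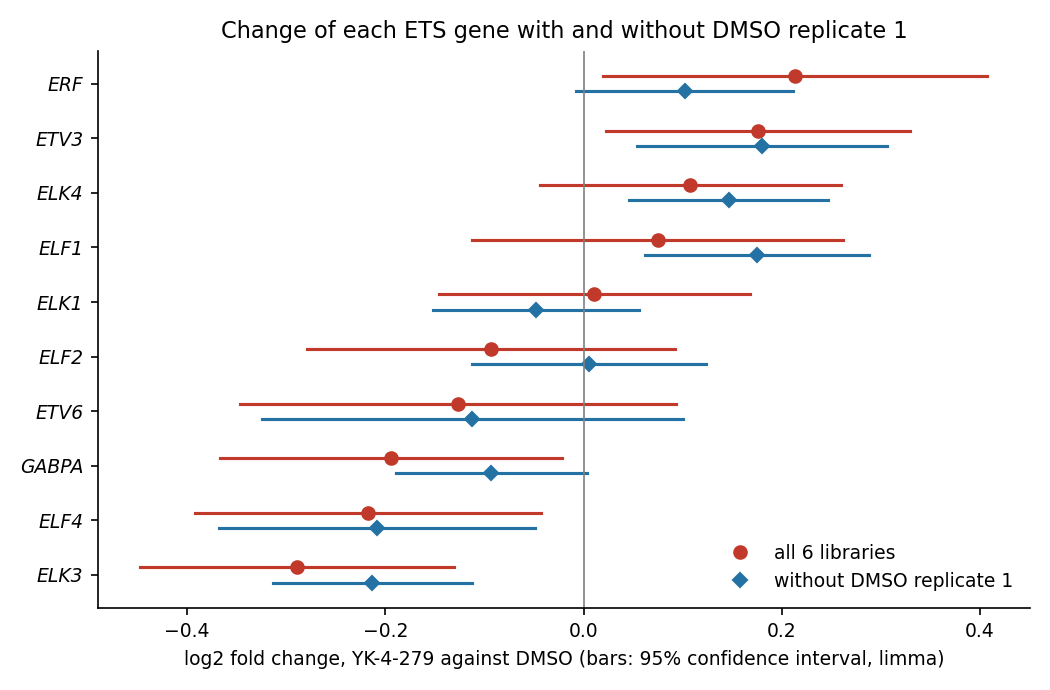
Log2 fold change of each ETS gene, YK against DMSO, with 95% confidence intervals from limma, over all 6 libraries (red circles) and without DMSO replicate 1 (blue diamonds). ELK3 lies lowest at -0.29 and moves to -0.21, ERF lies highest at 0.21 and moves to 0.10, and ELF1 moves from 0.08 to 0.18.

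Of 22 genes that ternary complex factors and SRF are known to turn on, 19 passed the filter, and with YK 9 were called higher and 0 lower, where 1.26% of all genes tested were called higher (limma). The other 10 did not pass. For 12 of the 19, every YK library was above every DMSO library, where 10.9% of all genes tested did so. The median log2 fold change was 0.43 against -0.01 over all genes, with 18 above and 1 below 0. EGR1 was already known to be high in these data when the list was written, so that the count is a description. edgeR and DESeq2 each called 9, those of edgeR being the same genes and those of DESeq2 holding JUNB in place of DUSP5. The count was 1 when any YK library was left out, and 11 without DMSO replicate 1.

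EGR1, a zinc finger factor made within minutes of growth factor signalling, lies on chromosome 5 from 138465479 to 138469303. It had 257, 291 and 291 normalized counts in DMSO and 572, 581 and 641 with YK. Its log2 fold change was 1.10 (SE 0.09, 95% confidence interval 0.90 to 1.29, limma adjusted p = 1.1e-04), the only call kept when any YK library was left out. PPP1R15A, which brings a phosphatase to eIF2 alpha, had 499, 613 and 608 in DMSO and 804, 899 and 842 with YK. It rose by 0.57 on the log2 scale (SE 0.09, limma adjusted p = 0.0071). IER2, an immediate early gene of the nucleus, had 369, 591 and 582 and then 721, 737 and 777. Its rise of 0.57 (SE 0.14, limma adjusted p = 0.0459) became 0.34 without DMSO replicate 1. DUSP5, a nuclear phosphatase of ERK, had 135, 129 and 129 and then 173, 178 and 183, a log2 fold change of 0.44 (SE 0.11, limma adjusted p = 0.0492). DUSP5 was not called by DESeq2, without the filter, with quantile scaling, without the trend, with a replicate block, or without any 1 library other than DMSO replicate 1. IER2 was not called with TMM or quantile scaling, without the trend, or without any 1 YK library.

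The remaining 5 of the 9 were named after their values were seen. FOS, a subunit of AP-1, had 47.9, 33.0 and 46.8 normalized counts in DMSO and 97.7, 73.9 and 98.0 with YK (log2 fold change 1.07, limma adjusted p = 0.0122). FOSB rose by 1.08 (limma adjusted p = 0.0413) and EGR2 by 0.87 (limma adjusted p = 0.0226), both at means under 100. Neither was called with quantile scaling, without the trend, with a replicate block, or without DMSO replicate 3 or any 1 YK library. FOSB was also not called without the filter, and its rise was 1.33 without DMSO replicate 1. ATF3, a stress-induced factor, and CCN1, a secreted matrix protein, rose by 0.43 and 0.35 (limma adjusted p = 0.0074 and 0.0160). CCN1 was not called without DMSO replicate 3, and neither ATF3 nor CCN1 was called without the trend or without any 1 YK library. MCL1, a survival factor of the BCL2 family, was the most highly counted of the list, at a log2 fold change of 0.03 (95% confidence interval -0.08 to 0.15, limma adjusted p = 0.781).

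**Figure D5:**
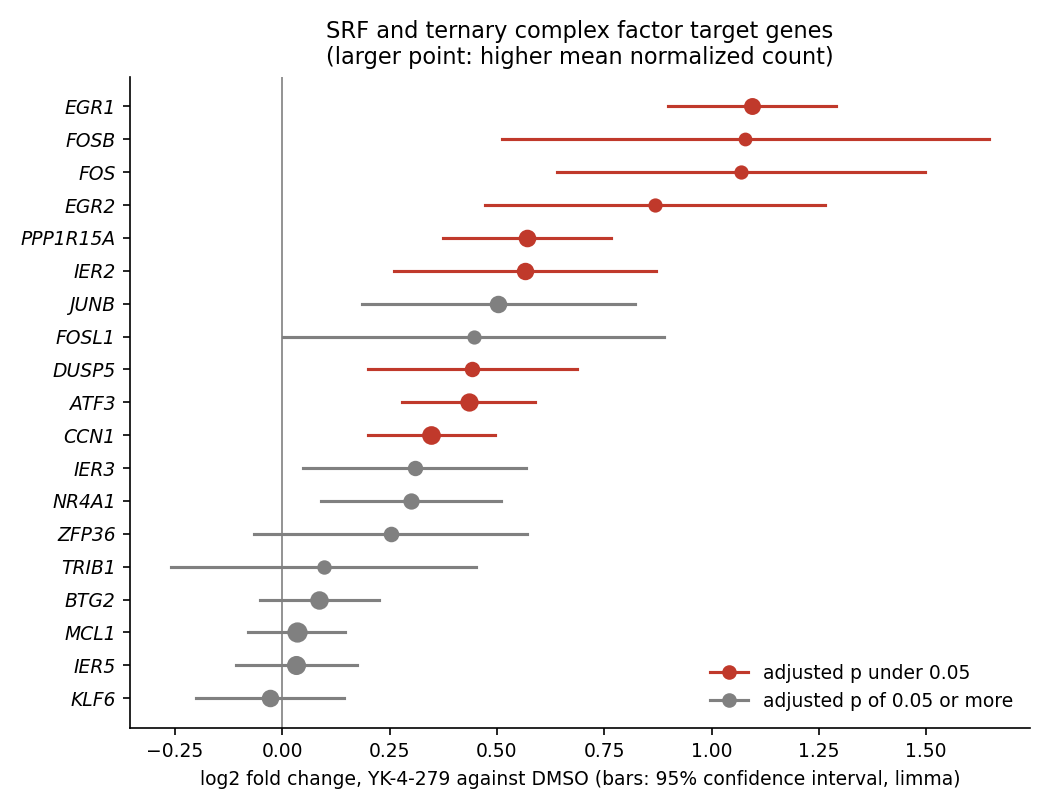
Log2 fold change with 95% confidence interval (limma) of the 19 SRF and ternary complex factor target genes that passed the filter, in order of size, with larger points for higher mean normalized counts. The 9 genes in red passed an adjusted p of 0.05, from CCN1 at 0.35 to EGR1 at 1.10, and 10 in grey did not.

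SRF itself lies on chromosome 6 from 43171269 to 43181506. It had 1475, 2059 and 1927 normalized counts in DMSO and 2175, 2236 and 2170.1 with YK. All YK libraries were above all DMSO libraries, but DMSO replicate 1 was far below its group, and the log2 fold change of 0.28 did not pass (SE 0.10, limma adjusted p = 0.139). Without that library it was 0.14 (limma adjusted p = 0.0370). The coactivators MRTFA and MRTFB, which bind SRF in place of ternary complex factors, overlapped between groups, and MYOCD was below the filter. limma, edgeR and DESeq2 called 0 of the 3 tested, and SRF alone had an unadjusted p under 0.05.

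The starts of SRF and EGR1 are shown because they hold letters that match both the CArG box and the GGAA core. The runs are the 120 bases before a RefSeq start (GRCh38.p14), at chr6:43171149-43171268 and chr5:138465359-138465478, both on the plus strand. Capitals mark CArG boxes, CCGGAA and GGAA on either strand.
SRF: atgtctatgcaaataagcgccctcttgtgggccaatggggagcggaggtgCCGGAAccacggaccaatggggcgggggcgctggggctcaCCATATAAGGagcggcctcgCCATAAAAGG
EGR1: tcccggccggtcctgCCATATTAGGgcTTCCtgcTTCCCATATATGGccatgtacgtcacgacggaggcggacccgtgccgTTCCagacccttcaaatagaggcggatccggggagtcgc
The SRF run holds 2 CArG boxes, 30 to 21 and 10 to 1 bases before the start, and CCGGAA 70 to 65 bases before it. The EGR1 run holds 2 CArG boxes, 105 to 96 and 83 to 74 bases before the start, with GGAA on the opposite strand at 93 to 90 and at 86 to 83, the latter sharing 1 base with the second box, and again at 39 to 36. Over the 18 windows of 14 target genes in the RefSeq table, 2 held a CArG box (EGR1 and EGR2), 4 held CCGGAA and all held GGAA. Of all windows, 1.3%, 17.2% and 95.4% held them. As above, these are matches of letters and not measured binding.

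A list of 15 genes held MAP kinases that phosphorylate ELK, ETV3 or ERF, phosphatases of MAP kinases, and MAP2K1 and MAP2K2, which activate ERK. Of these 15, 14 passed the filter and 1 was called, higher, where 1.26% of all genes tested were called higher. This was DUSP1, a phosphatase of p38, JNK and ERK that is itself an immediate early gene. It had 487, 394 and 459 normalized counts in DMSO and 634, 577 and 549 with YK, with a log2 fold change of 0.40 (SE 0.10, limma adjusted p = 0.0403). DUSP1 was not called with quantile scaling, without the trend, with a replicate block, or without any 1 library other than DMSO replicate 1. Without that one, 4 were called: DUSP1 (0.46) and DUSP10 (0.37) higher, and MAPK9 (-0.15) and MAPK12 (-0.14) lower. The median over the 14 was -0.05.

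Neither the partners and mitochondrial targets of GABP nor the corepressors of the repressor ETS proteins gave a call by limma. Of 15 GABP partners and targets tested, limma, edgeR and DESeq2 called 0, and 4 had an unadjusted p under 0.05 (POLRMT higher, and GABPB1, NRF1 and TFAM lower). For 6 of the 15, every YK library was below every DMSO library, where 15.1% of all genes tested did so, and for none was it above. The median log2 fold change was -0.06. The 4 genes just named were picked after their values were seen. GABPB1, the subunit that gives GABP its activation domain, had 668, 562 and 591 normalized counts in DMSO and 473, 515 and 513 with YK without overlap (log2 fold change -0.28, 95% confidence interval -0.46 to -0.09, limma adjusted p = 0.103). ATP5F1B, a subunit of the mitochondrial ATP synthase with the highest mean of the list, had -0.07 (limma adjusted p = 0.564). TFAM, which packs mitochondrial DNA and helps to transcribe it, was called lower without DMSO replicate 1, at -0.19 (limma adjusted p = 0.0111). Of the 14 corepressor genes, limma and edgeR called 0 and DESeq2 called 1, SIN3A, lower, and 2 had an unadjusted p under 0.05 (SIN3A and HDAC9). SIN3A, a scaffold for histone deacetylases also named after its values were seen, had 3759, 3303 and 3409 normalized counts in DMSO and 2913, 3060.0 and 2923 with YK, without overlap (log2 fold change -0.23, limma adjusted p = 0.0614). When DMSO replicate 1 was left out, SIN3A (-0.18) and CTBP1 (-0.18) were called lower and HDAC9 (0.76) higher.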

How the data were processed

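Libraries of polyA RNA from Rh30 cells (3 DMSO, 3 YK) were made with a directional kit. Per the labels, reads were aligned to hg38 with STAR 2.7.9a, and DESeq2 1.44.0 was among the tools. The annotation and the strand setting of the counting are not given in the sources used here. For each gene the authors deposited a normalized signal, that is, reads divided by a size factor of each library. Dividing by the smallest value above 0 gave whole reads for 100% of values (tolerance 0.01). The table had 35269 rows, of which 1 without a gene name (at most 6 reads per library) was left out.

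Groups were compared by linear models and trended empirical Bayes (limma 3.58.1, R 4.3.3), with log2(normalized count + 1) as the response, over 13930 genes with a mean of at least 10, two-sided, without a block. Fold changes are on that scale and understate changes of low genes. The edgeR 4.0.16 quasi-likelihood test and DESeq2 1.42.0 were run on the recovered reads, and the code was tested on simulated data. Other alternatives were pseudocounts of 0.5 and 10, no filter or a mean of at least 100, a replicate block, each library left out, TMM or quantile scaling, an untrended eBayes, and a fit after the dependence of each library on GC content and exon length had been taken out. Positions and exon lengths are from GENCODE release 44 (hg38), and 98.4% of the genes tested had them. Promoters are from RefSeq (GRCh38.p14).

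The members and gene lists were chosen with earlier results of these data known. Genes named were all members, ETS1, in each list the highest mean and up to 4 largest called changes (mean of at least 100, groups not overlapping), and the 3 genes most like a called member. Some genes that this rule names are not reported here. Intervals cover 95%.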

Additional observations from a re-analysis of the deposited data

How the results depend on the processing

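The count of genes called over the whole table was 475, and it moved to 277 with quantile normalization (132 higher and 145 lower, so that the share higher went from 37.1% to 47.7%), 33 by eBayes without trend (30 higher and 3 lower), 180 with a replicate block and 1539 after removal of the trend on GC and length. Leaving out 1 library gave 19 to 1823. The 19, 23 and 46 came without a YK library, 242 without DMSO replicate 3 and 1823 without DMSO replicate 1. The share higher was 44.3% by edgeR (465 calls, 435 of them shared with limma), and DESeq2 called 630 (454 shared) with no adjusted p for 22117 genes.

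Among the 10 ETS genes the count of 1 became 0 with TMM scaling, quantile normalization, eBayes without trend, the replicate block and edgeR. It became 5 after removal of the trend on GC and length (3 higher and 2 lower), where 11.2% of all genes tested were called. The count was 0 to 4 on leaving out 1 library, with 4 without DMSO replicate 1 (ELK3 lower, ELK4, ELF1 and ETV3 higher). In that last fit 13.1% of all genes tested passed. ELK3 was no longer called at -0.27 (TMM), -0.25 (quantile), -0.29 (without trend), -0.29 (replicate block, limma adjusted p = 0.105) and -0.27 (edgeR), and ranged from -0.34 to -0.21 on leaving out 1 library. After removal of the trend on GC and length, ELK4 (0.19), ELF4 (-0.24), ETV3 (0.21) and ERF (0.17) passed, and ELK1 turned to -0.024. On leaving out 1 library, ELK1 ranged from -0.048 to 0.067, ELK4 from 0.050 to 0.15, ELF1 from -0.015 to 0.18, ELF2 from -0.17 to 0.0055, ELF4 from -0.25 to -0.18, GABPA from -0.25 to -0.09, ETV3 from 0.14 to 0.20, ETV6 from -0.19 to -0.08 and ERF from 0.10 to 0.29. The listed genes, 10 of which were called, gave 5 (quantile), 1 (without trend), 6 (block) and 19 (trend on GC and length removed), and 1 to 23 on leaving out 1 library. The SRF and ternary complex factor targets gave 5 (quantile) and 1 (without trend) in place of 9, and 1 to 11 on leaving out 1 library. The causes were not tested.

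No shared effect of the replicate number was seen, as deviations of same-numbered libraries correlated at -0.0985, -0.0269 and -0.0267. These values cannot show whether same-numbered libraries were made together. With 3 libraries a group, and DMSO replicate 1 apart from its group, small changes were not resolved: the 95% confidence intervals of 5 members (ELK1, ELK4, ELF1, ELF2 and ETV6) included 0, and those of the other 5 did not although only ELK3 passed the adjustment.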
